A study of Homo sapiens with 3 samples.

Results

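The genes described here encode the oxidative phosphorylation system: the subunits of complexes I to V of the mitochondrial inner membrane and the factors that help build them. A gene belonged when a probe set annotated to it alone carried a symbol opening with NDUF, with one of SDHA to SDHD, with UQCR, with ATP5, or with COX plus a digit. That gave 107 of 19775 genes on the array, read by 203 probe sets. Protein-coding genes made up 101 of them and noncoding RNAs or pseudogenes 6. By role, 33 were complex I subunits, 3 complex II, 6 complex III, 16 nuclear and 3 mitochondrially encoded complex IV and 17 complex V. Assembly factors numbered 8 for complex I, 4 for complex II and 9 for complex IV. The remaining coding genes were ATP5IF1, the inhibitor protein of the ATP synthase, and COX7A2L, a factor of respiratory supercomplexes. The choice used gene names and no measured value, but it was made with earlier results of these data known.

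NCI-H1650 is an established line of human lung adenocarcinoma. Its total RNA was hybridised to Affymetrix HG-U133 Plus 2.0 arrays after exposure to 40 μM colossolactone H, a triterpenoid of the fungus Ganoderma colossum, for 12 h, after 24 h of the same exposure, and from control cells. All cultures were grown in RPMI medium with fetal calf serum, and the labels name neither a vehicle nor a collection time for the control. Each group was 1 array, so every difference below describes a pair of arrays, has no replicate error and no test, and is limited in precision by the number of arrays. RNA came from whole cultures, so fewer cells of a kind and less RNA per cell cannot be told apart.

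Oxidative phosphorylation passes electrons from NADH through complex I, or from succinate through complex II, to ubiquinone, then through complex III and cytochrome c to oxygen at complex IV. Complexes I, III and IV pump protons as they do so, and complex V, the ATP synthase, uses the resulting gradient to make ATP. Complex II is encoded wholly in the nucleus, whereas the others combine nuclear subunits with a few made from mitochondrial DNA. Assembly factors are absent from the finished enzymes. They insert cofactors such as copper, haem, flavin and iron-sulphur clusters, or hold subunits in place while modules join.

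The nuclear respiratory factor NRF1 and the ETS factor GABPA are known activators of nuclear genes for this system, and the promoters of 3 members that hold the NRF1 motif are printed because their transcripts lay on both sides of the control. Each line gives the 250 bases before the annotated start, 5′ to 3′ on the gene's own strand, from RefSeq on GRCh38.p14. Capitals mark the 10 letters of the NRF1 motif searched for and, further along in SDHD, the ETS motif CCGGAAGT as it reads on the opposite strand. COX17, a copper chaperone for complex IV, lies at chr3:119677407-119677656 on the minus strand. NDUFB4, a membrane-arm subunit of complex I, lies at chr3:120596086-120596335 on the plus strand. SDHD, a membrane anchor of complex II, lies at chr11:112086623-112086872 on the plus strand.
COX17: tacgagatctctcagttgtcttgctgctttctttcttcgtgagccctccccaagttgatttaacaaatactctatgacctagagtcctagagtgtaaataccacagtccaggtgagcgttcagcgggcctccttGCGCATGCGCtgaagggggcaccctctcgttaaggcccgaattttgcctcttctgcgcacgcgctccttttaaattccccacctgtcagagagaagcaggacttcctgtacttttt
NDUFB4: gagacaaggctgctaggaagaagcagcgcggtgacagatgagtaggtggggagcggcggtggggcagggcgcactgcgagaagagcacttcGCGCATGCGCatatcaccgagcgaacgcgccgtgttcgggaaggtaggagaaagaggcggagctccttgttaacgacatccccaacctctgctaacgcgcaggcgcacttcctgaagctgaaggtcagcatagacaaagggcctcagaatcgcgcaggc
SDHD: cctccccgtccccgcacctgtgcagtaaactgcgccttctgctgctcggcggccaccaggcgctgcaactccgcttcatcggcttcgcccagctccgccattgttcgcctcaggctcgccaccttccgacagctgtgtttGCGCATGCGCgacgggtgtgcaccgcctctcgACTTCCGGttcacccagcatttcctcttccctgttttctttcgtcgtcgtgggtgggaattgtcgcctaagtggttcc
Counted from the annotated start, the NRF1 motif begins at position -116 in COX17, -159 in NDUFB4 and -110 in SDHD, where the ETS motif follows at -78.

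Signal is the linear intensity that the authors deposited for each probe set, and each gene is represented by the brightest of its single-gene probe sets. A floor was put at 61.4, the 50th percentile of the table, with lower signals raised to it, and genes above it on at least 1 array counted as measured. By that rule 100 of the 107 genes were measured, 99 of them above the floor on all 3 arrays, and 12351 genes were measured in the whole table. Values of difference are on the log2 scale, treated minus control, except where given as a fold. The size threshold for counting a gene as higher or lower was a log2 difference of 0.32.

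Measured genes of the system lay close to the control at both times, with a slight shift upward. It was larger in the assembly factors than in the subunits on the brightest probe sets, but with probe sets specific to 1 transcript the assembly factors, at 0.05 and 0.09, lay near all members, at 0.05 and 0.08. Over the 100 measured members the median difference was 0.08 at 12 h and 0.06 at 24 h, against 0.00 and 0.00 over all measured genes. The 24 h median was 0.02 after quantile normalization and 0.04 after cyclic loess. At 12 h 69 members stood higher than the control by any amount, where 50.2% of all measured genes did so. At 24 h 66 members did, where 48.8% of all measured genes did.

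Few members passed the size threshold in any direction. At 12 h 8 members passed it upward, where 12.5% of all measured genes did, and 4 passed it downward, where again 12.5% did. At 24 h 5 members passed it upward, against 13.8% of all measured genes, and 2 downward, against 16.1%. At 12 h the 4 lower members were SDHAF3, SDHA and the noncoding NDUFB2-AS1 and ATP5MC2P1, and at 24 h the 2 lower members were these noncoding ones. No member reached 2-fold at 12 h, where 0.445% of all measured genes were that much higher and 0.437% that much lower. None reached it at 24 h, where the shares of all measured genes were 0.591% higher and 0.64% lower.

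Most of these genes gave bright signals, and fewer bright genes than genes at large passed the size threshold. For 74 members the mean signal was at least 2236.9, a level reached by 3088 measured genes. This comparison was chosen after the values were seen. Among those 3088 genes 6.31% passed the threshold upward at 12 h and 8.97% at 24 h, and 5.99% and 9.07% passed it downward. Of the 74 bright members 5.41% passed it upward and 1.35% downward at 12 h, and 1.35% upward and none downward at 24 h. The bright members were thus near the bright genes upward at 12 h and below them in the other 3 counts. By any amount 70.3% of the bright members stood higher at 12 h and 64.9% at 24 h, where 53.7% and 53.1% of the bright genes did.

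**Figure D1:**
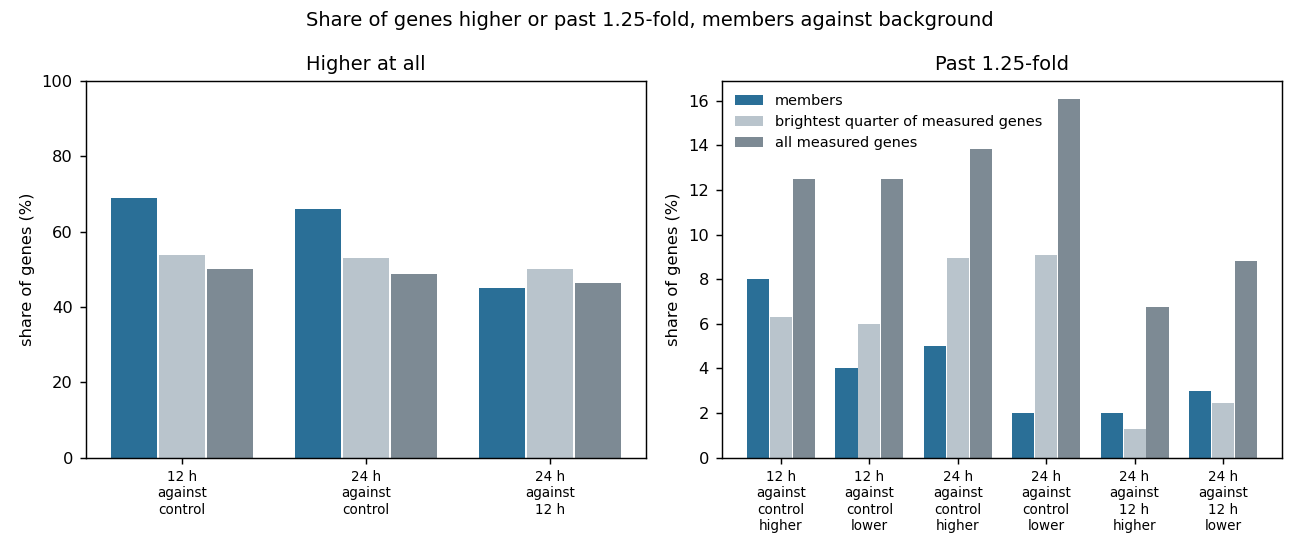
Share of genes in percent for the measured members, for the measured genes with a mean signal of at least 2236.9 and for all measured genes. The left panel shows genes higher by any amount and the right panel genes past the size threshold (log2 difference of 0.32) in each direction, so that members show a higher share above the control (69 and 66 of 100) but few differences past the threshold.

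Across the array set, 27227 probe sets at 12 h and 27388 at 24 h exceeded the floor, against 27366 in the control, and median signals were 60.6 at 12 h and 61.8 at 24 h, against 61.7 in the control. The 7 epithelial markers were all measured, with a summed signal of 70170.5 at 12 h and 70996.2 at 24 h, against 72969.5 in the control, although KRT19 was lower and CLDN4 higher by more than the threshold at both times. Of 7 leukocyte markers CSF1R and ITGAM were measured and PTPRC was under the floor on all arrays, with summed signals of 312 at 12 h and 368.4 at 24 h, against 366.1 in the control. Of 8 fibroblast or endothelial markers COL1A1, COL3A1 and PECAM1 were measured, all lower at both times, and the list summed to 1551.5 at 12 h and 1269.1 at 24 h, against 1840.8 in the control. No muscle marker was measured. The ratio of 3′ to 5′ signal of ACTB, read as a sign of RNA integrity, was 5.38 at 12 h and 6.55 at 24 h, against 4.95 in the control, while that of GAPDH was 1.24 at 24 h, against 1.21 in the control. The part of these differences in the results was not tested.

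Complex I takes electrons from NADH. Its 33 measured subunits had a median difference of 0.10 at 12 h and 0.04 at 24 h. Of them 27 stood above the control at 12 h and 19 at 24 h, but only NDUFB10 passed the threshold, at 12 h alone, and its second probe set was at -0.12 there. The subunits that bind NADH and its flavin or carry electrons lay on both sides of the control. NDUFV1, which holds the NADH and flavin site, had a signal of 2853.8 at 12 h and 2589.4 at 24 h, against 2424.9 in the control, differences of 0.23 and 0.09. NDUFS1, the largest iron-sulphur subunit, read 3805.2 at 12 h and 3639.9 at 24 h, against 4200.7 in the control, differences of -0.14 and -0.21. Thus NDUFV1 was above the control on both treated arrays and NDUFS1 below it. NDUFS1 also has other probe sets above the floor on all arrays, and at each time they disagreed in direction.

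The complex I subunits with the largest mean difference over both times were NDUFA13, NDUFA7, NDUFS6 and NDUFB4. NDUFA13, also known as GRIM-19 and needed for complex I assembly, read 8301.4 at 12 h and 7676.3 at 24 h, against 6969.1 in the control. NDUFS6, a subunit of the NADH-binding arm, read 12675 at 12 h and 12240.5 at 24 h, against 10935.2 in the control. NDUFA7 read 1746 at 12 h and 1761.4 at 24 h, against 1537.5 in the control. All 3 were higher on both treated arrays, by 0.25 and 0.14, 0.21 and 0.16, and 0.18 and 0.20. NDUFB4, whose promoter is shown above, read 12256.2 at 12 h and 11969.1 at 24 h, against 13915.8 in the control. It was lower by both comparisons, at -0.18 and -0.22, and its second, faint probe set was lower too, at -1.22 and -0.03. NDUFB8, a membrane-arm subunit, was higher by 0.12 and 0.23, and all 3 of its probe sets lay above the control at both times.

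Other core and linked subunits of complex I had smaller mean differences over both times. NDUFV2, an iron-sulphur partner of NDUFV1, was at -0.05 and -0.09. NDUFS3, a core subunit of the ubiquinone-binding module, was at -0.12 at both times. NDUFAB1, the mitochondrial acyl carrier protein that is also bound in complex I, was at 0.08 and 0.17. NDUFB9 and NDUFA10, of the membrane arm, were higher by 0.10 and 0.13 at 12 h and by 0.22 and 0.18 at 24 h. None of these 5 passed the size threshold.

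Complex I assembly factors stood higher as a group than the subunits they help to join. Their median was 0.20 at 12 h and 0.22 at 24 h. All 8 lay above the control at both times, although NDUFAF6 did so by 0.01 and 0.00 and was just below it at 24 h when arrays were centred on their medians or aligned by cyclic loess. With the median over each gene's probe sets 6 of the 8 lay above it at 24 h. The list is short, and 50.2% and 48.8% of all measured genes lay above the control at these times.

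NDUFAF2, a chaperone bound to a late assembly intermediate, read 2361.2 at 12 h and 2645.7 at 24 h, against 1878.5 in the control. That was 1.26-fold and 1.41-fold higher, the largest mean difference in the group, from a single probe set. NDUFAF4, which works with NDUFAF3 in building the ubiquinone-binding module, read 1417.7 at 12 h and 1329.6 at 24 h, against 1128.5 in the control. Its differences were 0.33 and 0.24. Its second probe set was higher as well, by 0.66 and 0.92, but was faint, at 75.3 in the control. NDUFAF3 was higher by 0.23 and 0.16.

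NDUFAF5, which hydroxylates an arginine of NDUFS7, read 863.5 at 12 h and 933.5 at 24 h, against 771.2 in the control. Both of its probe sets above the floor were higher at both times. NDUFAF7, a methyltransferase acting on a core subunit, read 1051.4 at 12 h and 1156.1 at 24 h, against 897.2 in the control. Its difference was 0.23 at 12 h and 0.37 at 24 h, but its other probe sets were both at -0.10 at 24 h, and the median over probe sets was -0.10 there. NDUFAF1, part of the complex that builds the membrane arm, and NDUFAF8, a partner of NDUFAF5, were higher by 0.08 and 0.13 at 12 h and by 0.20 and 0.07 at 24 h.

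**Figure D2:**
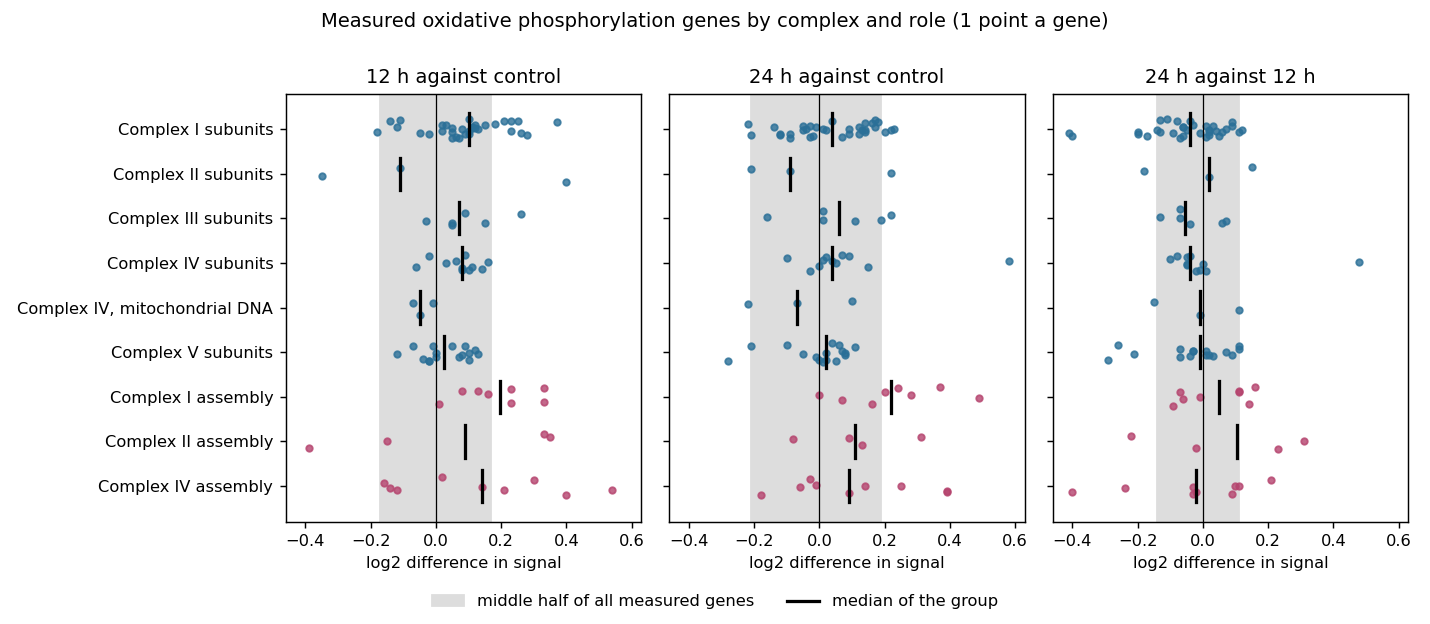
Log2 difference in signal of each measured gene, 1 point a gene, by complex and role, in 3 panels that compare 12 h with control, 24 h with control and 24 h with 12 h. Black bars are group medians and the grey band spans the middle 50 percent of all measured genes. Subunit medians (blue points) lie between -0.11 and 0.10 against the control, and assembly factor medians (red points) between 0.09 and 0.22.

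Complex II, succinate dehydrogenase, oxidises succinate in the citric acid cycle. Its 3 measured subunits pointed in different directions, with a median of -0.11 at 12 h and -0.09 at 24 h. SDHA, the flavin-bearing catalytic subunit, read 4414.7 at 12 h and 4885.3 at 24 h, against 5637.0 in the control. It was 1.28-fold lower at 12 h and lower by 0.21 at 24 h. The probe set behind this value may also bind related transcripts, since its name ends in _x_at. A further probe set, annotated to the pseudogenes SDHAP1 and SDHAP2, read 5013.1 at 12 h and 5277.1 at 24 h, against 6099.7 in the control, so SDHA and its copies cannot be told apart here.

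SDHC and SDHD anchor the enzyme in the membrane and bind ubiquinone. SDHC read 5299 at 12 h and 4664.3 at 24 h, against 4014.6 in the control, 1.32-fold higher at 12 h and 0.22 higher at 24 h. Its 7 probe sets did not share a direction at either time, and among probe sets specific to 1 transcript the brightest gave -0.08 and -0.34. SDHD read 5652.7 at 12 h and 5719.5 at 24 h, against 6097.6 in the control, differences of -0.11 and -0.09.

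The 4 complex II assembly factors spread widely, with differences at 12 h that ran between -0.39 and 0.35. SDHAF1, which helps load iron-sulphur clusters into the enzyme, read 865.9 at 12 h and 855.1 at 24 h, against 687.5 in the control. It was 1.26-fold higher at 12 h and higher by 0.31 at 24 h, and its second probe set was higher by 0.28 and 0.12. SDHAF4, a chaperone of the flavin subunit, read 449.1 at 12 h and 385.9 at 24 h, against 351.7 in the control. SDHAF4 was thus 1.28-fold higher at 12 h and 0.13 higher at 24 h.

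SDHAF3, a partner of SDHAF1 in cluster loading, was the reverse at 12 h. It read 861.7 at 12 h and 1066.6 at 24 h, against 1130.4 in the control, 1.31-fold lower at 12 h and lower by 0.08 at 24 h. SDHAF2, which attaches flavin to SDHA, read 749.7 at 12 h and 880.4 at 24 h, against 829.1 in the control, with differences of -0.15 and 0.09. SDHAF2, SDHAF3 and SDHAF4 each rest on 1 probe set.

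Complex III passes electrons to cytochrome c. The median of its 6 measured subunits was 0.07 at 12 h and 0.06 at 24 h, and 5 of them lay above the control at each time. UQCRC1, a core protein of the matrix side, read 3322.9 at 12 h and 3162.4 at 24 h, against 2768.6 in the control, differences of 0.26 and 0.19. UQCRC2, its partner core protein, read 12857.2 at 12 h and 13516.6 at 24 h, against 11566.6 in the control, and all 3 of its probe sets were higher at both times. UQCRQ, a small subunit bound near cytochrome b, was higher by 0.05 and 0.11. The exception was UQCR10, another small subunit, at 13132.2 at 12 h and 12041.9 at 24 h, against 13414.1 in the control, though its second probe set was higher by 0.21 and 0.13.

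Complex IV, cytochrome c oxidase, reduces oxygen. Its 11 measured nuclear subunits had a median of 0.08 at 12 h and 0.04 at 24 h, and the 24 h median became -0.03 after quantile normalization. COX4I1, the common isoform of subunit 4, read 12281.6 at 12 h and 12367.2 at 24 h, against 11603.4 in the control. COX5B, which binds zinc, read 11461.8 at 12 h and 11395.9 at 24 h, against 11645.2 in the control. On its brightest probe set neither lay further than 0.09 from the control. A second bright probe set of COX4I1 was at 0.27 and 0.13, and a much dimmer one at -0.34 and 0.33. The other probe sets of COX5B ran between -0.15 and 0.09 at 12 h and between -0.06 and -0.01 at 24 h. COX7A2 was higher by 0.14 and 0.15, and COX6C by 0.16 and 0.07.

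The isoform genes that other tissues use lay mostly under the floor. COX6A2 and COX7A1, the heart and muscle isoforms, COX6B2 and COX8C, known from testis, and COX7B2 were under the floor on all arrays. The other members not measured were ATP5MF, a complex V subunit read here by 1 probe set, and the pseudogene COX6A1P1. COX4I2, the isoform of subunit 4 expressed in lung and induced by low oxygen, was faint. It read 101.8 at 12 h and 141.5 at 24 h, against 94.5 in the control, 0.11 and 0.58 higher. The 24 h value was the largest of any subunit and came from 1 probe set near the floor.

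COX1, COX2 and COX3, made from mitochondrial DNA, form the catalytic core of complex IV. COX1 read 28797 at 12 h and 31082.7 at 24 h, against 29037.7 in the control. COX2 read 32447.3 at 12 h and 32140.4 at 24 h, against 33663.8 in the control. COX3 read 3081.3 at 12 h and 2771.3 at 24 h, against 3226.9 in the control. The median of the 3 differences was -0.05 at 12 h and -0.07 at 24 h. On the brightest probe sets COX1 at 24 h was the only one above the control. A second bright probe set of COX2 was at -0.04 at 12 h and 0.02 at 24 h. The probe sets behind the values of COX2 and COX3 have names ending in _x_at and may also bind related transcripts. The signals of COX1 and COX2 lay near 34145, the highest in the table.

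The median of the complex IV assembly factors was 0.14 at 12 h and 0.09 at 24 h, with 6 and 5 of 9 above the control. With probe sets specific to 1 transcript the medians were -0.05 and -0.02. COX11, which delivers copper to the catalytic centre of COX1, read 2388.8 at 12 h and 2363.7 at 24 h, against 1806.4 in the control. It was 1.32-fold and 1.31-fold higher. All 4 of its probe sets were above the floor and higher, by 0.36 to 0.92 at 12 h and by 0.39 to 0.61 at 24 h, so no probe set of COX11 lay below the control at either time.

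COX17, the copper chaperone that hands the metal to COX11 and SCO1, read 210.7 at 12 h and 224.2 at 24 h, against 171.5 in the control. It was 0.30 higher at 12 h and 1.31-fold higher at 24 h. COX14, which acts early in the synthesis and assembly of COX1, read 2749.9 at 12 h and 2087.5 at 24 h, against 1889.3 in the control. COX14 was 1.46-fold higher at 12 h, the largest upward difference of any member at that time, and higher by 0.14 at 24 h. COX17 and COX14 rest on 1 probe set each.

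COX10 and COX15 make haem A, the haem of this enzyme. COX10 read 656.2 at 12 h and 708.9 at 24 h, against 597.3 in the control, higher by 0.14 and 0.25, while its faint second probe set was lower. COX15 lay within 0.02 of the control at both times on its brightest probe set. COX16 and COX18, factors for COX2, were at -0.16 and -0.14 at 12 h and at -0.06 and -0.18 at 24 h. COX20, a COX2 chaperone, was at 0.21 and -0.03, but its other probe sets were at -0.28 and 0.12 at 12 h and at 0.01 and 0.33 at 24 h. COX19, a partner of COX11, was at -0.12 and 0.09, while its faint second probe set was at 0.10 and 0.78. By their brightest probe sets the 6 factors above the control at 12 h were COX10, COX11, COX14, COX15, COX17 and COX20.

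**Figure D3:**
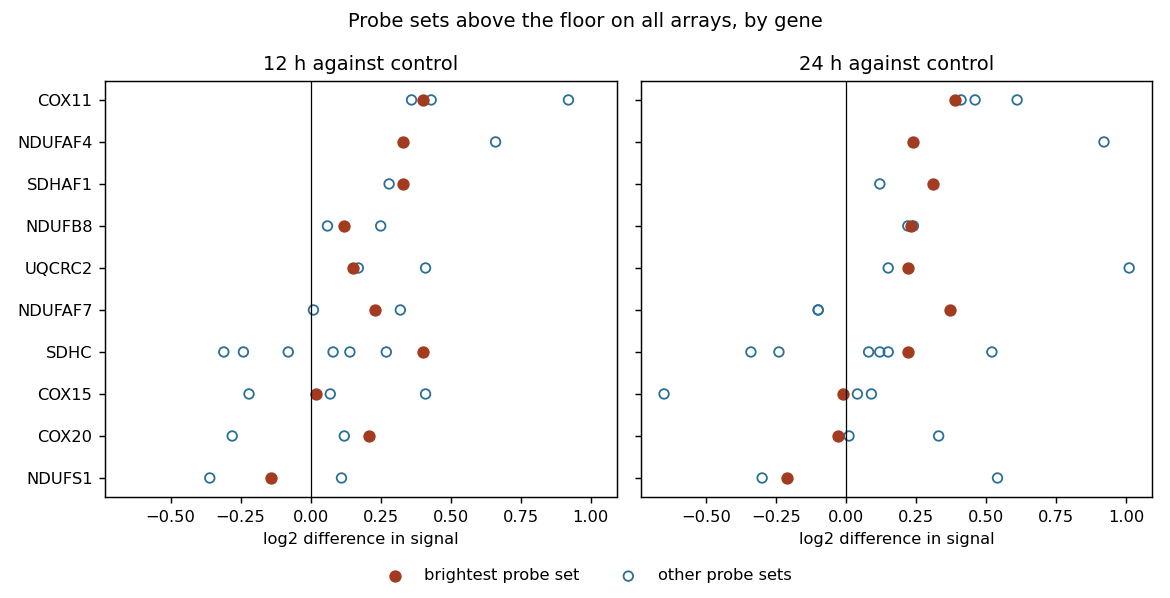
Log2 difference from control at 12 h and 24 h for selected genes. Every probe set of these genes above the floor on all arrays is shown, with the brightest filled. The 4 probe sets of COX11 lie between 0.36 and 0.92, the highest from one near the floor in the control. Those of SDHC lie on both sides of 0.

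Complex V makes ATP. Its 16 measured subunits showed the smallest shift, with a median of 0.02 at 12 h and 0.02 at 24 h, the second becoming -0.02 after quantile normalization. ATP5F1A and ATP5F1B, the alternating alpha and beta subunits of the catalytic head, stayed near the control. ATP5F1A read 13180.9 at 12 h and 13286.5 at 24 h, against 13215.8 in the control. ATP5F1B read 12983.7 at 12 h and 12753.2 at 24 h, against 12222.1 in the control. The stator subunits ATP5PD and ATP5PO were higher by 0.10 and 0.12 at 12 h and by 0.11 and 0.08 at 24 h, and ATP5MJ, a small membrane subunit, by 0.13 and 0.05, with a second probe set at 0.04 and -0.06.

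ATP5F1D, the delta subunit of the central stalk, read 945.2 at 12 h and 790.4 at 24 h, against 961.1 in the control, with differences of -0.02 and -0.28. Its other probe set lay above the control, at 0.48 and 0.80. ATP5ME, the e subunit of the membrane part, was at 0.08 and -0.21, while its second probe set was at 0.45 and 0.20. ATP5IF1, which blocks the reverse reaction of the synthase, read 3572 at 12 h and 3544.5 at 24 h, against 3151.7 in the control. It was higher by 0.18 and 0.17, and all 3 of its probe sets lay above the control at both times. COX7A2L, the supercomplex factor, read 6007.3 at 12 h and 6236.5 at 24 h, against 5620.7 in the control, higher by 0.10 and 0.15.

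**Figure D4:**
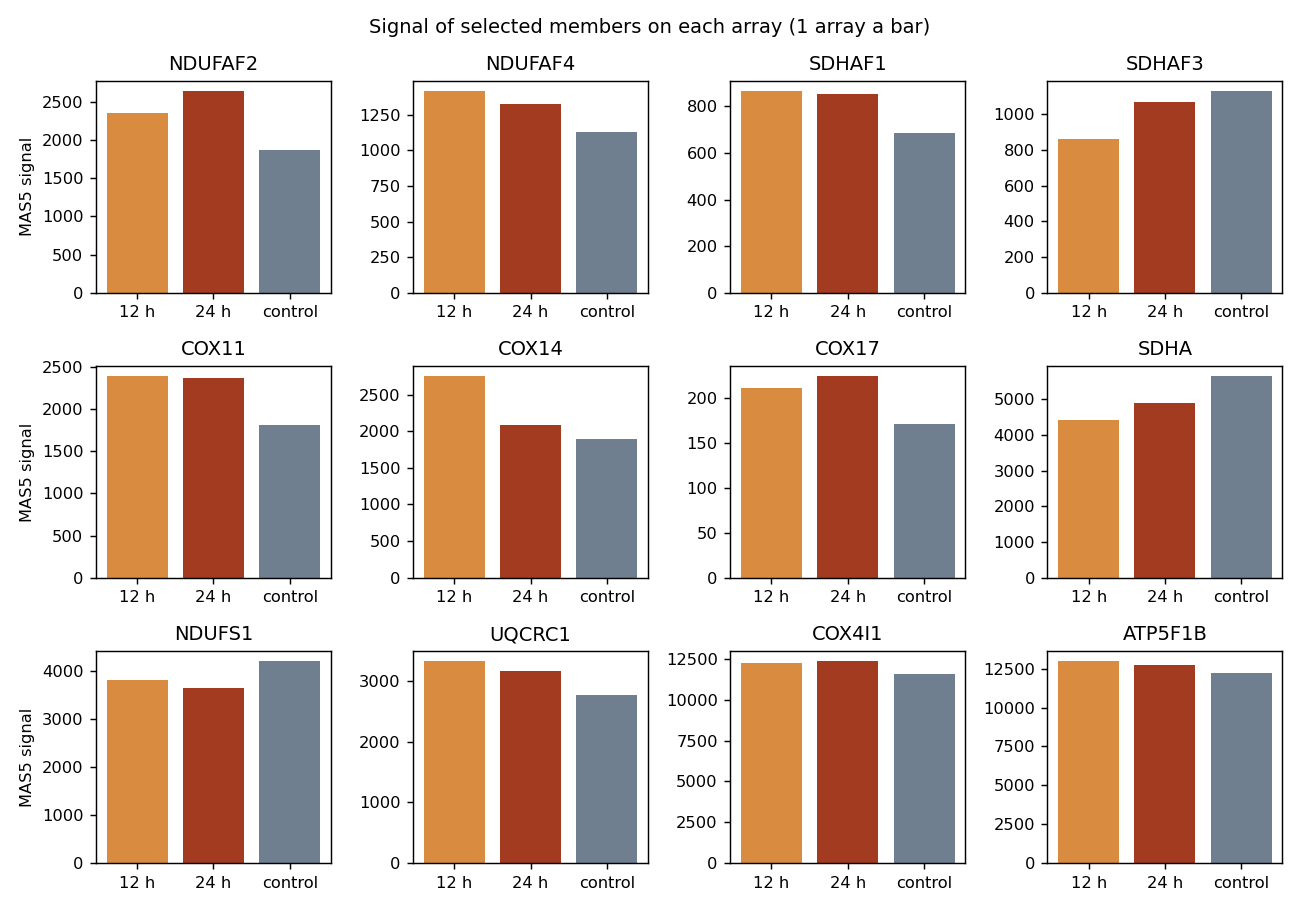
Deposited MAS5 signal of 12 selected members on the 12 h, 24 h and control arrays, 1 array a bar, each panel on its own axis from 0. COX11 reads 2388.8 and 2363.7 on the treated arrays and 1806.4 in the control, while ATP5F1B reads 12983.7 and 12753.2 on the treated arrays and 12222.1 in the control.

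Taking roles across the complexes, the 21 assembly factors had a median of 0.16 at 12 h and 0.14 at 24 h, and the 72 measured subunits 0.07 and 0.02. Of the assembly factors 6 passed the threshold upward at 12 h and 4 at 24 h, with 1 downward at 12 h and none at 24 h. Those shares upward, 28.6% and 19%, compare with 12.5% and 13.8% of all measured genes. Of the subunits 2 (2.78%) passed upward at 12 h and 1 (1.39%) at 24 h. Downward, 1 subunit passed at 12 h and none at 24 h, where 12.5% and 16.1% of all measured genes did. At 12 h the assembly factors were NDUFAF2, NDUFAF4, SDHAF1, SDHAF4, COX11 and COX14 upward and SDHAF3 downward, and the subunits NDUFB10 and SDHC upward and SDHA downward. At 24 h they were NDUFAF2, NDUFAF7, COX11 and COX17, with COX4I2 the subunit. Probe sets specific to 1 transcript, which brought the assembly factors near all members, covered 16 of the 21. Most subunits reached the bright level of 2236.9, but among the assembly factors only NDUFAF2, NDUFAF8, COX14 and COX16 did. Of the bright genes 6.31% passed the threshold upward at 12 h and 8.97% at 24 h, below the shares of all measured genes. The part of signal level in the contrast of roles was not tested. The 12 h and 24 h values share 1 control array, so their counts are not separate observations.

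Of the 6 noncoding members, NDUFB2-AS1, an antisense RNA at the NDUFB2 gene, read 97 at 12 h and 115.7 at 24 h, against 150 in the control, 1.55-fold and 1.30-fold lower. ATP5MC2P1, a pseudogene of a c-ring subunit, was at 60.0 at 12 h, under the floor, and at 82.5 at 24 h, against 109.2 in the control. It was thus at least 1.78-fold lower at 12 h and 1.32-fold lower at 24 h. Both transcripts were faint and rest on 1 probe set each. NDUFB2 itself was at 0.03 and 0.02 on its brightest probe set. Its other probe sets were at -0.11 and -0.06 at 12 h and at -0.09 and -0.13 at 24 h.

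Between the treated times the members differed little. For 24 h against 12 h the median was -0.01, the same as over all measured genes, and 45 of 100 members stood higher at 24 h, where 46.3% of all measured genes did. With arrays centred on their medians this count was 33, where 40.4% of all measured genes stood higher. COX4I2 and ATP5MC2P1 passed the threshold upward, where 6.76% of all measured genes did, and NDUFB10, NDUFS7 and COX14 downward, where 8.79% did. Among the 3088 bright genes 50% stood higher at 24 h than at 12 h, 1.26% passed the threshold upward and 2.46% downward. None of the members reached 2-fold, where 0.146% of all measured genes were higher and 0.178% lower.

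NDUFB10, a membrane-arm subunit of complex I, had 3385.5 at 24 h, against 4508.6 at 12 h, with 3487.2 in the control. Its second probe set ran the other way, 0.21 higher at 24 h and lower at 12 h than in the control. NDUFS7, which carries the last iron-sulphur cluster before ubiquinone, had 1013 at 24 h, against 1339.6 at 12 h, with 1119.5 in the control. COX14 was 1.32-fold lower at 24 h than at 12 h. For NDUFS7 and COX14, each read by 1 probe set above the floor, the 12 h array was the one that stood above both others.

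Mitochondrial genes outside the chosen names were read from lists of known function, described by the same rules. Assembly factors with other names, such as SURF1, SCO1 and BCS1L, numbered 33. Their median was 0.07 at 12 h and 0.08 at 24 h, with 2 and 7 past the threshold upward and 1 and 2 downward. Over all measured genes 12.5% and 13.8% passed it upward and 12.5% and 16.1% downward, shares that also stand behind the counts of the lists that follow. With probe sets specific to 1 transcript the list's medians were -0.04 and -0.02. BCS1L, the ATPase that inserts the Rieske protein into complex III, read 578.1 at 12 h and 554.1 at 24 h, against 361.3 in the control, 0.68 and 0.62 higher. UQCC3, needed for cytochrome b in the same complex, read 558.9 at 12 h and 435.8 at 24 h, against 303.9 in the control, 0.88 and 0.52 higher. UQCC2, a factor for cytochrome b synthesis, was faint and lower, at 73.8 at 12 h and 71.4 at 24 h, against 103.6 in the control. Each of these 3 rests on 1 probe set. ATPAF1, a chaperone of the beta subunit of the ATP synthase, was higher by 0.32, just short of the threshold, and 0.38, while its second probe set was at 0.23 and -0.08.

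For 15 genes of mitochondrial protein handling the median was 0.08 at 12 h and 0.10 at 24 h. LONP1, the matrix protease, read 1755.3 at 12 h and 1944.6 at 24 h, against 1294.2 in the control, 0.44 and 0.59 higher. HSPA9, the matrix chaperone mortalin, was higher by 0.15 and 0.30, and all 3 of its probe sets above the floor lay above the control. GRPEL1, its nucleotide exchange factor, was higher by 0.13 and 0.32, and CLPP, a matrix protease subunit, by 0.28 and 0.21. Only LONP1 passed the threshold at 12 h, joined by GRPEL1 at 24 h.

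The median of 18 electron entry and carrier genes was 0.05 at 12 h and 0.01 at 24 h. In the ubiquinone pathway PDSS1, which makes its side chain, was at -0.53 and -0.29, while COQ5, a methyltransferase of the ring, was at 0.40 and 0.36 and COQ8B, a kinase-like protein, at 0.67 and 0.10. ETFB, part of the flavoprotein that brings in electrons from fat oxidation, was higher by 0.31 and 0.29. The 12 measured citric acid cycle genes were centred on 0.00 at 12 h and on -0.01 at 24 h, with 2 past the threshold downward at 24 h, a share near the 16.1% of all measured genes. The 24 h median was -0.20 with probe sets specific to 1 transcript. CS, the citrate synthase that opens the cycle, read 3679 at 12 h and 3235.8 at 24 h, against 4373.2 in the control, -0.25 and -0.43. OGDH, of the oxoglutarate dehydrogenase, was at -0.13 and -0.38, with all 3 probe sets lower. SUCLA2, of succinyl-CoA ligase, was at -0.17 and -0.27. IDH2, the matrix isocitrate dehydrogenase, was at 0.19 and 0.30, while its dimmer probe set was at 0.00 and -0.33.

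For 14 measured regulators of mitochondrial biogenesis the median was 0.04 at 12 h and -0.03 at 24 h. At 24 h 4 of the 14 lay above the control, where 48.8% of all measured genes did, but several of the others lay within 0.04 of it. TFAM, which packages and transcribes mitochondrial DNA, read 1046.2 at 12 h and 1034.7 at 24 h, against 1288.8 in the control, -0.30 and, just short of the threshold, -0.32. Its other probe sets above the floor were at -0.54 and 0.10 at 12 h and at -0.16 and -0.11 at 24 h. GABPA, the ETS factor named above, read 1129 at 12 h and 895.4 at 24 h, against 1226.5 in the control, -0.12 and -0.45, while its dimmer probe set was at -0.05 and 0.09. ESRRA, an orphan nuclear receptor, was at -0.24 and -0.23, while its faint second probe set was at -0.56 and 0.13. POLRMT, the mitochondrial RNA polymerase, was at 0.05 and -0.28. Against the control, GABPA at 24 h was the list's 1 gene past the threshold. For 24 h against 12 h GABPA and POLRMT passed it downward, each at -0.33, where 8.79% of all measured genes did. The dimmer probe set of GABPA was at 0.13 in that comparison.

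**Figure D5:**
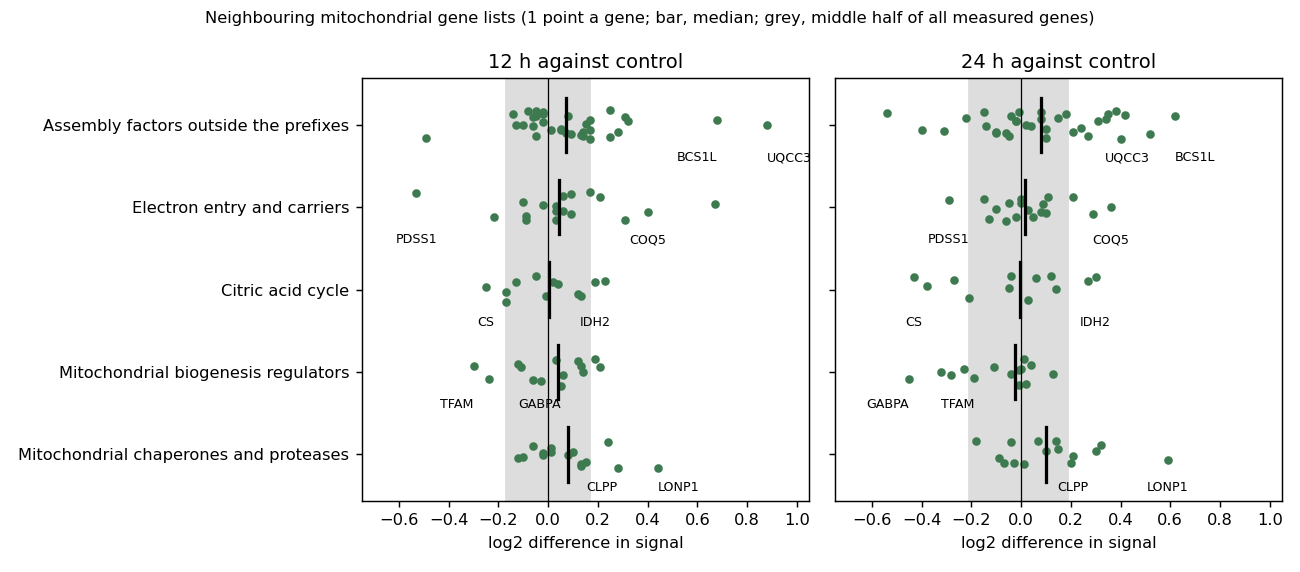
Log2 difference from control at 12 h and 24 h of each measured gene in 5 lists of mitochondrial function, 1 point a gene, with the list median as a black bar and the middle 50 percent of all measured genes in grey. UQCC3 lies furthest above the control at 12 h (0.88) and BCS1L at 24 h (0.62), while the citric acid cycle and biogenesis lists are centred near 0.

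Promoter letters were compared with these differences for 81 of the 92 measured nuclear coding members, those with a RefSeq promoter of 250 bases before and 50 after the start. Motifs were searched on both strands. The NRF1 motif, the 10 letters in capitals in all 3 printed promoters, stood in 7 of the 81 promoters (8.64%), against 1.36% of 27305 promoters in the table and 2.37% of those of measured genes. CCGGAAGT, the ETS motif, stood in 13 (16%), against 4.44% and 8.8% of the same sets. AAGATGGCG, for YY1, stood in 8 (9.88%), against 1.85% and 3.97%. TGATGCAA, bound by ATF4 with a CEBP partner, stood in none, against 0.923% and 0.557%. No motif contains another.

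Holders of the NRF1, ETS and YY1 motifs lay on both sides of the control. NDUFAF5, NDUFA8, NDUFB4, SDHD, COX17, COX18 and ATP5F1C hold the NRF1 motif, and 3 of these 7 were above the control at 12 h and 4 at 24 h, where 56 and 48 of the 74 members without it were. Their medians were -0.07 and 0.04, against 0.09 and 0.05 without the motif. Their differences ran between -0.18 and 0.30 at 12 h and between -0.22 and 0.39 at 24 h, with COX17 highest and NDUFB4 lowest at both times. The median of the 13 ETS holders was 0.05 at 12 h and 0.08 at 24 h, against 0.08 and 0.04 without the motif. NDUFA7, NDUFA9, NDUFA6, NDUFS7, NDUFS4, UQCRC1, COX10 and ATP5PF hold the YY1 motif. Of these 8, 7 lay above the control at each time, where 52 and 45 of the 73 members without it did. Medians of the 8 were 0.12 and 0.13, against 0.08 and 0.04 for members without the motif.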

How the data were processed

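Total RNA of 3 NCI-H1650 cultures was measured on 3 arrays, 1 in each of 3 groups. The values used are linear signal intensity as deposited by the authors for 54675 probe sets, and MAS5 made them, per the submitters' processing notes. Its version and settings are not given in the sources used here. MAS5 summarises each probe set from matched and mismatched probes, so low values are noisy, and a floor at the 50th percentile, 61.4, was set before log2 was taken. The deposited scaling was kept.

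Gene names came from the platform's annotation, which gave 1 gene for 41097 and several for 1801, and all 107 members matched RefSeq by Entrez identifier. The 12 probe sets that pair a member's name with other genes were kept out of the gene values. A gene took its brightest single-gene probe set, which for 51 members was one that may read several transcripts and for 8 of these one that may read other genes. Comparisons were 12 h minus control, 24 h minus control and 24 h minus 12 h, each a log2 difference of a pair of arrays with no test. Genes at 1.25-fold or more, the size threshold (0.32 on the log2 scale), and at 2-fold or more were counted. No column of the table was left unassigned.

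The members, gene lists and rules were chosen with earlier results of these data known. Named members were up to 4 per complex and role whose mean difference was furthest from 0, any past 1.5-fold, certain core subunits and isoforms, and members counted 5 or fewer at a time. From each neighbouring list up to 4 genes were named the same way. NDUFA10, NDUFAB1, NDUFB8, NDUFB9, NDUFS3, NDUFV2, NDUFAF1, NDUFAF3, NDUFAF6, NDUFAF8, NDUFB2, COX15, COX16, COX18, COX19, COX20, COX7A2L, ATP5IF1, ATP5ME, COX1, COX2, COX3 and genes given in groups by promoter motif were named after their values were seen. Promoters came from RefSeq (GRCh38.p14), 300 bases each. Python 3.11.15, pandas 2.3.3, numpy 2.4.6, matplotlib 3.10.9, R 4.3.3 and limma 3.58.1 were used, and the counting was tested on simulated data. Alternatives covered array scaling, the floor and the probe set of a gene.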

Additional observations from a re-analysis of the deposited data

How the results depend on the processing

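No paired analysis was possible because each group held 1 array, and for the same reason no array could be left out and no error given. Median centring, quantile normalization and cyclic loess moved no count by over 1.5 times, no list median by 0.1 and no named gene by the size threshold of 0.32. With the floor at the 25th percentile 5 members were higher at 24 h than at 12 h, where the count had been 2. With it at the 65th percentile, which left 95 measured members, 2 were lower at 12 h than in the control (4 before), 3 higher at 24 h (5 before) and 0 lower (2 before), and 0 were higher at 24 h than at 12 h. With no floor 7 were lower than the control at 12 h, 5 lower at 24 h, and 5 higher at 24 h than at 12 h. With the median over probe sets 8 were higher than the control at 24 h and 5 higher at 24 h than at 12 h. NDUFAF7 turned to -0.10 at 24 h, and the biogenesis regulators to 0.02 for 24 h against 12 h, where their median had been -0.11. With transcript-specific probe sets, which left 77 measured members, 7 were lower than the control at 12 h, 5 lower at 24 h and 7 higher at 24 h than at 12 h. At 12 h the medians were then 0.19 for complex III subunits, -0.05 for complex IV assembly factors, 0.06 for ATP5IF1 and -0.04 for assembly factors with other names, and SDHC turned to -0.08. At 24 h they were -0.22 for complex II subunits, -0.02 for complex IV assembly factors, -0.20 for the citric acid cycle and -0.02 for assembly factors with other names. For 24 h against 12 h complex II subunits were at -0.12. That setting tests fewer genes and other probe sets, and the cause of each change was not tested. Members above the control at 24 h numbered 57 after quantile normalization and 60 after cyclic loess, against 66 as deposited. Of the members with at least 2 probe sets above the floor, 21 of 44 at 12 h and 20 of 46 at 24 h had probe sets on both sides of the control.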

Other observations

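The mitochondrial transcripts outside the COX genes were read beside the nuclear ones, chosen after their values were seen. ND2 and ND4, complex I subunits made from mitochondrial DNA, were at -0.14 and 0.02 at 12 h and at -0.02 and 0.03 at 24 h, and ATP6, a membrane subunit of the ATP synthase, was at 0.09 and 0.05. ND6, the complex I subunit encoded on the opposite strand of mitochondrial DNA to the other subunit genes, read 664 at 12 h and 436.2 at 24 h, against 622.6 in the control. It was 0.09 higher at 12 h and 1.43-fold lower at 24 h, and 1.52-fold lower at 24 h than at 12 h. This rests on 1 probe set, and whether other transcripts of that strand moved with it was not tested.

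Probe sets that the annotation shares between a member's name and other genes gave further values. One shared by UQCRH, the hinge protein of complex III, and its copy UQCRHL read 13213.4 at 12 h and 12995.3 at 24 h, against 13290.8 in the control. Another, shared by NDUFC2, a membrane-arm subunit of complex I, and a readthrough transcript, read 8504.5 at 12 h and 8679.5 at 24 h, against 7997.9 in the control. Both lay within 0.12 of the control. Probe sets of the SDHA pseudogenes were lower at both times, at -0.28 and -0.21 for the brightest and at -0.45 and -0.36 for one shared with MIR570HG, whereas one that also names SDHA was at -0.03 and 0.22.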
